A study of Mus musculus with 6 samples.

Results

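This account covers 10 mouse genes of the NRF2 antioxidant response, 9 target genes and the sensor Keap1, in RNA from isolated glomeruli, the filtering units of the kidney. The genes were Slc7a11, Gclc, Gclm, Txnrd1, Srxn1, G6pdx, Nqo1, Hmox1, Osgin1 and Keap1, chosen by name out of the 55401 genes in the deposited count table. All 10 passed the filter on low counts, as did 19717 genes in all. Polyadenylated RNA was sequenced from 2 groups of 3 libraries, labelled Control and DKD, which the series title spells out as diabetic kidney disease in mice. The labels give each group only as Control or DKD under genotype, and they state no strain, age, sex, treatment or way of inducing diabetes. The libraries are numbered, but no label ties each to its own animal, so the p-values rest on a spread between libraries that may be partly technical.

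NRF2, encoded by Nfe2l2, is a transcription factor that switches on genes for handling oxidants and reactive chemicals. In unstressed cells KEAP1 binds NRF2 and hands it to a ubiquitin ligase built on CUL3, so that NRF2 is broken down. Oxidants and electrophiles modify cysteines of KEAP1, NRF2 then accumulates, pairs with a small MAF protein and binds antioxidant response elements in the DNA near its targets. The targets supply glutathione and thioredoxin, the NADPH that both need, and enzymes that remove quinones and heme. High glucose is a known source of oxidants in kidney cells, and the pathway is widely studied in diabetic kidney disease.

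The core of the antioxidant response element, TGACNNNGC, was searched on both strands of the RefSeq promoter windows (GRCm38.p6), which run from 250 bases before to 50 bases after each annotated start. Of the 10 genes 8 had a window, and Gclc and Hmox1 had no entry. A match was found for 4 of the 8, in 4 of their 10 windows. A match was held by 12.4% of all 32851 windows of this length. The stretches are printed because they show where the recognition core lies in genes whose levels are given below, on the strand of the gene, with the match in capitals and 10 bases on either side. In all 4 the core lay on the opposite strand, so the capitals read as its reverse complement.
G6pdx, chrX:74428919-74428947, minus strand, bases -57 to -49 from the start: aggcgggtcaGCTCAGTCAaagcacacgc
Gclm, chr3:122245413-122245441, plus strand, bases -134 to -126: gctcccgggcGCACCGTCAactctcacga
Txnrd1, chr10:82859104-82859132, plus strand, bases -92 to -84 of 1 of its 3 starts: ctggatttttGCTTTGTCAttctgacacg
Srxn1, chr2:152105542-152105570, plus strand, bases 29 to 37 after the start: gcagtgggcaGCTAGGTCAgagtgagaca
A match is a stretch of letters and not a measured binding site, and the windows of Nqo1, Slc7a11, Osgin1 and Keap1 held none.

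Library totals ran from 71154026 to 83576494 counts. Levels below are in CPM, the usual unit for counts made comparable between libraries, here with TMM factors, and the log2 fold change is DKD over Control with its standard error, from the quasi-likelihood test of edgeR across all genes. Control replicate 3 correlated less with its group (log CPM r of 0.956 and 0.955 across genes, which are not independent replicates) than Control replicates 1 and 2 did with each other (0.98). Podocyte markers were detected, with none of 8 at 0, but held 0.0573% ± 0.0160 (SD, n = 3) of Control counts and 0.0346% ± 0.00640 of DKD counts (two-sided exact permutation p = 0.2). The 7 endothelial markers held 0.0380% ± 0.0110 and 0.0217% ± 0.00638 (two-sided exact permutation p = 0.2). The 6 mesangial markers held 0.0261% ± 0.00890 and 0.0171% ± 0.00212 (two-sided exact permutation p = 0.3). The 11 proximal tubule markers held 3.41% ± 0.907 and 2.24% ± 0.426 (two-sided exact permutation p = 0.1, below which 3 against 3 cannot go, and 0.467 adjusted over 7 marker lists), so tubule markers took a far larger share of these glomerular libraries than podocyte markers did. The 5 distal nephron markers held 0.563% ± 0.0943 and 0.484% ± 0.148. Gene by gene, 2 of the 11 tubule markers had an edgeR adjusted p under 0.05. These were Slc5a12 (log2 fold change -2.56 ± 0.25, edgeR adjusted p 0.0192) and Slc5a2 (-1.82 ± 0.30, edgeR adjusted p 0.0445). Of the 6 mesangial markers 1 did, Agtr1a (-1.07 ± 0.16, edgeR adjusted p 0.0360), and of the other lists 0. Kap, the tubule marker with the highest mean CPM, had overlapping groups (12954 ± 7148 in Control, 8010 ± 3392 in DKD). Mitochondrially encoded genes held 11.8%, 10.6% and 12.2% of counts in Control replicates 1 to 3 and 18.7%, 15.3% and 18.4% in DKD replicates 1 to 3, without overlap, and their part in the gene values below was not tested. In such bulk samples fewer cells of a type and less RNA per cell cannot be told apart.

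Of the 10 genes, 1 passed the edgeR threshold of adjusted p under 0.05. Gclc, the catalytic subunit of the enzyme that makes the first bond of glutathione, rose 2.31-fold in DKD. The fitted values of 8 other genes were also higher in DKD, that of Osgin1 only slightly, and Keap1 was nearly level, but none of these 9 passed the threshold of adjusted p under 0.05. Over all genes 1.16% passed that threshold. At an unadjusted p under 0.05 there were 5 of the 10, all higher in DKD (Gclc, Hmox1, Srxn1, G6pdx and Nqo1), against 11.8% of all genes tested that were higher at that p. For 4 of the 10 every DKD library lay above every Control library (Gclc, Hmox1, Srxn1 and G6pdx), against 15.5% of all genes tested. The median log2 fold change of the 10 genes was 0.65, and that of all genes tested was 0.0029. The 10 genes were chosen with earlier results of these data known, so these counts and medians describe the list and do not test it.

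**Figure D1:**
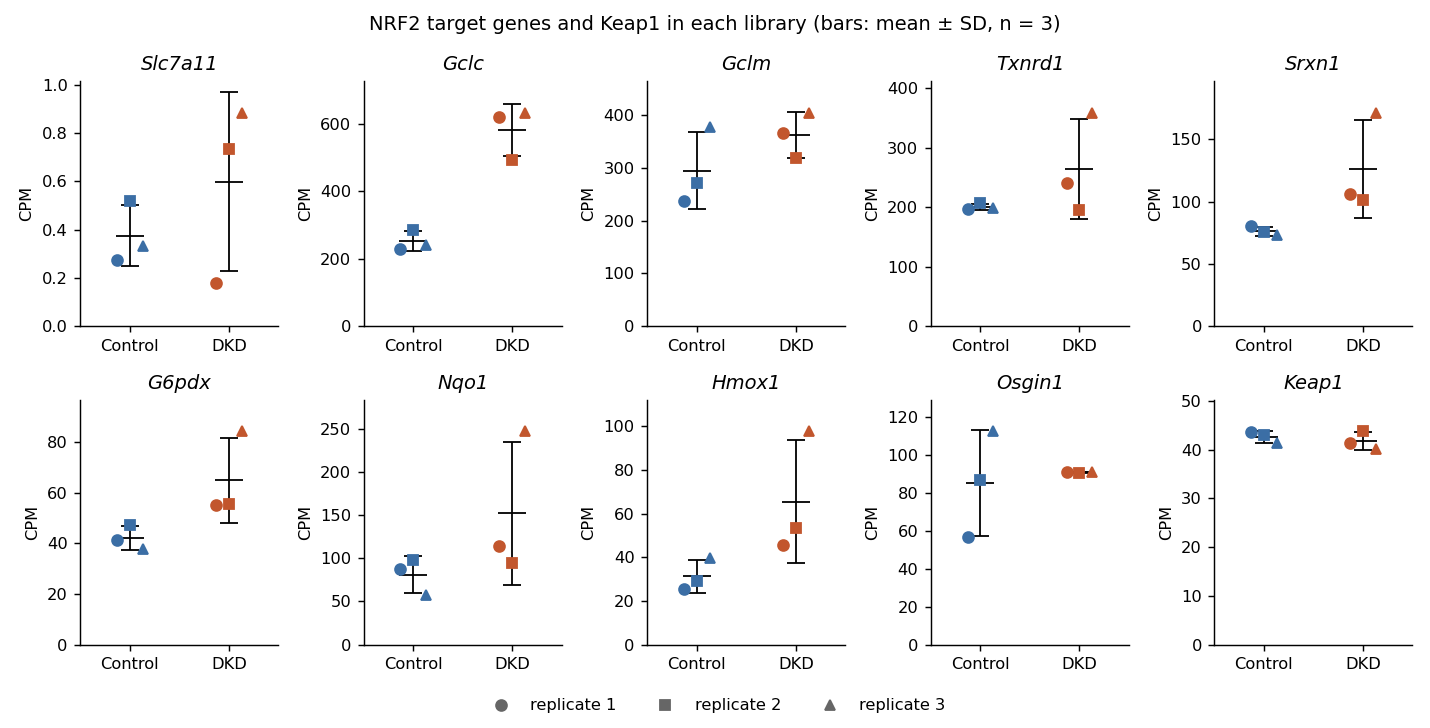
Level of each of the 10 genes in CPM (vertical axis, linear from 0) in the Control and DKD libraries, with symbols for replicates 1 to 3 and bars for mean ± SD. The DKD points of Gclc, Srxn1, G6pdx and Hmox1 all lie above the Control points, and DKD replicate 3 is the highest library for 8 of the 10 genes.

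Glutathione synthesis begins with cystine, which Slc7a11 brings into the cell in exchange for glutamate. Slc7a11 was barely detected, with 12 to 63 counts per library. It was measured at 0.275, 0.519 and 0.330 CPM in Control replicates 1 to 3 and at 0.179, 0.734 and 0.883 CPM in DKD replicates 1 to 3. The lowest and the highest library were both DKD, and the log2 fold change of 0.68 ± 0.64 had a 95% interval from -0.83 to 2.18 and was 0.29 without DKD replicate 3. The DKD libraries differed from one another more than the group means did, and the interval includes both a fall and a rise. Of the 31-base stretches of Slc7a11, 4.27% also occur in other genes such as Tuba1a, and their part in its counts was not tested.

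Gclc was measured at 230.05, 285 and 241 CPM in Control replicates 1 to 3 and at 621, 493 and 632 CPM in DKD replicates 1 to 3. The lowest DKD library thus lay well above the highest Control library. The log2 fold change was 1.21 ± 0.17 (95% interval 0.82 to 1.60), with an edgeR adjusted p of 0.0322. By unadjusted p, Gclc ranked 82 among the 19717 genes. The call was lost when 1 of 4 libraries was left out, although the log2 fold change stayed between 1.14 and 1.31. Leaving out Control replicate 1 or Control replicate 2 gave edgeR adjusted p-values of 0.137 and 0.107, and leaving out DKD replicate 1 or DKD replicate 3 gave 0.130 and 0.107. In these 4 fits 1, 13, 4 and 10 of all genes passed, in the same order. The call was also lost with no filter on low counts (edgeR adjusted p 0.0540) and with a trend on transcript length removed (0.0533). Adding the replicate number to the model lost it as well (edgeR adjusted p 0.169).

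Gclm, the modifier subunit that raises the activity of Gclc, had overlapping groups. It was measured at 236, 271 and 377 CPM in Control and at 366, 318 and 404 CPM in DKD replicates 1 to 3. Control replicate 3 lay above 2 of the DKD libraries, and the log2 fold change was 0.30 ± 0.20 (edgeR adjusted p 0.429, 95% interval -0.18 to 0.78). Without Control replicate 3 the log2 fold change of Gclm was 0.51 ± 0.15 (edgeR adjusted p 0.107). Per kilobase of exonic length the mean level was 66.9 CPM for Gclc and 46.9 for Gclm in Control, against 155 and 57.7 in DKD. The ratio of Gclc to Gclm per kilobase was 1.63, 1.76 and 1.07 in Control and 2.84, 2.59 and 2.61 in DKD. Every DKD ratio was above every Control ratio (1.48 ± 0.367 against 2.68 ± 0.137, SD, n = 3, exact permutation p = 0.1, two-sided), a comparison chosen after the values were seen. This ratio does not depend on library scaling. Of the 31-base stretches of Gclm, 6.8% also occur in other genes such as Gm17494 and Ppia, while those of Gclc occur in no other gene. The part of this in the ratio was not tested.

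In the thioredoxin system, Txnrd1 encodes the cytosolic reductase that passes electrons from NADPH to thioredoxin. Txnrd1 was measured at 197, 207 and 199 CPM in Control and at 241, 195 and 359 CPM in DKD replicates 1 to 3. DKD replicate 2 lay below the whole Control group and DKD replicate 3 far above it. Its fitted difference was 0.40 ± 0.22 on the log2 scale (edgeR adjusted p 0.334), and 0.12 ± 0.15 without DKD replicate 3.

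Srxn1 encodes sulfiredoxin, which repairs overoxidised peroxiredoxins. Srxn1 was measured at 80.3, 75.2 and 73.0 CPM in Control and at 106, 101 and 171 CPM in DKD. Each DKD library stood above a narrow Control range. Srxn1 had a log2 fold change of 0.73 ± 0.21 (95% interval 0.23 to 1.22), with an edgeR adjusted p of 0.111 and, by DESeq2, an adjusted p of 0.0214. Without DKD replicate 3 it was 0.44 ± 0.12. DESeq2 also called Gclc, Hmox1 and G6pdx, so 4 of the 10, but it called 13.7% of the 18167 genes to which it gave an adjusted p, where edgeR called 1.16% of 19717. Limma-voom called Gclc alone among the 10, and 1.03% of all genes.

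G6pdx encodes glucose-6-phosphate dehydrogenase, which opens the pentose phosphate pathway and makes NADPH. G6pdx was measured at 41.3, 47.1 and 37.6 CPM in Control and at 55.0, 55.3 and 84.2 CPM in DKD. The groups did not overlap, although DKD replicates 1 and 2 lay closer to the Control range than to DKD replicate 3. On the log2 scale the fold change was 0.63 ± 0.19, with adjusted p-values of 0.123 by edgeR and 0.0389 by DESeq2. Without DKD replicate 3 it was 0.39 ± 0.13. G6pdx shares exonic bases with Ikbkg on the opposite strand (13.6% of its length), and the sources used here do not say whether counting used the strand. Its retrocopy G6pd2 had 0 counts in 5 libraries and 6 in DKD replicate 1.

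Nqo1 encodes a quinone reductase and is a classic readout of NRF2. Nqo1 was measured at 87.6, 97.9 and 56.9 CPM in Control and at 114, 94.8 and 247 CPM in DKD. DKD replicate 3 held more than the other DKD libraries together, and DKD replicate 2 lay inside the Control range. With all libraries the log2 fold change was 0.91 ± 0.38 (edgeR adjusted p 0.215). Without DKD replicate 3 it was 0.37 ± 0.24.

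Hmox1 encodes heme oxygenase, which splits heme into biliverdin, iron and carbon monoxide. Hmox1 was measured at 25.3, 28.9 and 39.6 CPM in Control and at 45.7, 53.3 and 97.7 CPM in DKD. Every DKD library was above every Control library, with DKD replicate 3 again the highest. Hmox1 had a log2 fold change of 1.07 ± 0.31 (95% interval 0.35 to 1.79), with adjusted p-values of 0.110 by edgeR and 0.0143 by DESeq2. Without DKD replicate 3 it was 0.66 ± 0.21. Macrophages, which clear heme, are a known site of Hmox1 expression. The 9 macrophage markers held 0.0101% to 0.0279% of counts in Control and 0.0147% to 0.0336% in DKD (exact permutation p = 0.5, two-sided), none was at 0 in all libraries, and their part in the Hmox1 values was not tested. The 6 erythrocyte markers held 0.0400% to 0.0674% in Control and 0.0251% to 0.140% in DKD (exact permutation p = 0.8, two-sided). The part of the erythrocyte markers in the Hmox1 values was not tested either.

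Osgin1, an oxidative stress induced growth inhibitor, was measured at 56.9, 86.9 and 113 CPM in Control and at 91.0, 90.7 and 91.3 CPM in DKD. The DKD libraries were almost identical and sat within the spread of the Control libraries. Its log2 fold change was 0.09 ± 0.23 (edgeR adjusted p 0.851), and its sign turned with library totals as the scaling (-0.0088). It also turned without Control replicate 1 (-0.13) and with a trend on transcript length (-0.061) or GC content (-0.14) removed.

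Keap1, the sensor that holds NRF2 down, had the smallest standard error of the 10. Keap1 was measured at 43.7, 43.0 and 41.3 CPM in Control and at 41.3, 43.7 and 40.1 CPM in DKD. The groups overlapped almost fully, and the log2 fold change was -0.03 ± 0.09, with a 95% interval from -0.25 to 0.19 (edgeR adjusted p 0.874). Gm16754, a gene on the opposite strand, covers 10.9% of its exonic bases and had a mean level of 0.847 ± 0.127 CPM (SD, n = 3) across Control libraries and 1.25 ± 0.239 across DKD libraries. Per kilobase, Keap1 (9.09 CPM in Control) was below every target except Slc7a11 (0.0269). The order above it in Control was G6pdx (13.6), Hmox1 (17.9), Srxn1 (27.0), Txnrd1 (28.4), Osgin1 (32.0), Gclm (46.9), Nqo1 (52.0) and Gclc (66.9). The neighbours Srxn1, Txnrd1 and Osgin1 lay closer to one another than the spread of Osgin1 between Control libraries, and so did Gclm and Nqo1 relative to their own spread.

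The libraries did not contribute equally. DKD replicate 3 was the highest library for 8 of the 10 genes, and for 22.2% of all genes tested. The exceptions were Osgin1, highest in Control replicate 3, and Keap1, highest in DKD replicate 2, which is also the only gene of the 10 that was lowest in DKD replicate 3. Control replicate 1 was lowest for 4 of the 10 (12.5% of all genes) and Control replicate 3 for 3 (25.9%). DKD replicate 3 also had the smallest share of proximal tubule markers, 1.75% of counts, against 2.40% and 2.55% in DKD replicates 1 and 2 and 2.79% to 4.45% in Control, and the part of this in the gene values was not tested. Without DKD replicate 3 the median log2 fold change of the 10 genes was 0.33. The values of Gclc moved least among the genes with a log2 fold change above 0.5, from 1.21 to 1.14.

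**Figure D2:**
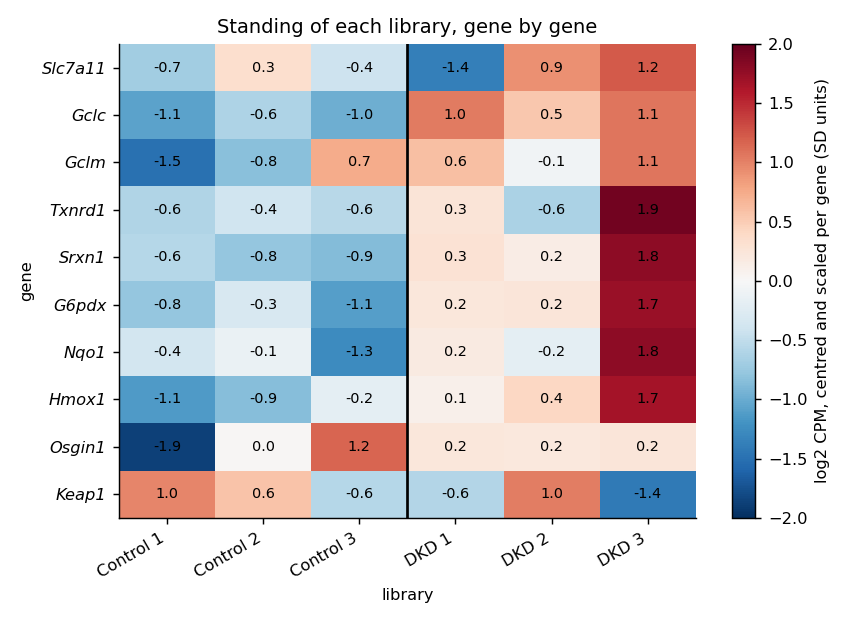
log2 CPM of each gene (rows) in each library (columns), centred on the gene's mean over the 6 libraries and divided by its SD, with red for above and blue for below the mean. The column of DKD replicate 3 is the reddest for Txnrd1, Srxn1, G6pdx, Nqo1 and Hmox1, whereas Gclc is about as high in DKD replicate 1.

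**Figure D3:**
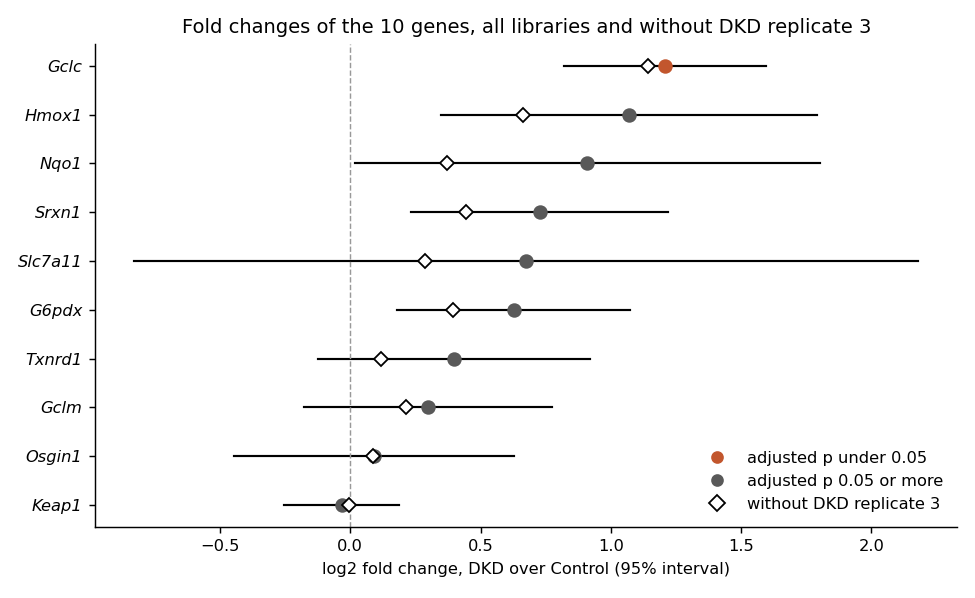
log2 fold change of each gene, DKD over Control (horizontal axis), with its 95% interval from edgeR over all 6 libraries (circles and lines) and the estimate without DKD replicate 3 (open diamonds). Gclc is the single gene past the threshold, and its diamond lies close to its circle, while those of Nqo1 and Hmox1 lie to the left of theirs.

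The genes whose log2 CPM followed Gclc most closely over the 6 libraries were Cry1, Ncs1 and Fgfr1op, with Pearson r of 0.999, 0.996 and 0.993 among 13219 candidates with a mean of at least 1 CPM. Cry1, a repressor of the circadian clock, averaged 3.26 ± 0.493 CPM in Control and 9.46 ± 1.24 in DKD (SD, n = 3). Ncs1 encodes a neuronal calcium sensor and was measured at 10.7 ± 0.989 and 22.6 ± 2.93 CPM. Fgfr1op encodes a centrosomal protein and was measured at 22.9 ± 0.771 and 30.2 ± 1.86 CPM. With 6 points in 2 separate groups such values are a description, and many genes that differ between the groups would score high.

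The rest of the pathway was read from a list of 45 other genes, of which 44 were tested and Gpx2 was too low. None passed the edgeR threshold. With an unadjusted p under 0.05 the list held 13 genes (22.6% of all genes tested reach this). Of the 13, 9 were higher in DKD (11.8% of all genes) and 4 lower (10.9%). With a trend on transcript length removed the list held 8 such genes, beside 3458 of all 19717. Without DKD replicate 3 it held 6, beside 3016 of all 20383. Control and DKD values were fully apart for 14 of the 44 (30.7% of all genes), with DKD above Control for 8 (15.5%) and below it for 6 (15.2%). DESeq2 called 8 of them, 5 higher and 3 lower, beside its 13.7% over all genes, and limma-voom called 0. The median log2 fold change of these genes was 0.19, with 26 higher and 18 lower, while 9907 of all 19717 genes tested were higher. That median was 0.036 without DKD replicate 3 and 0.034 with library totals as the scaling. This list, too, was chosen with earlier results of these data known.

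Among the regulators, Nfe2l2 itself was measured at 140, 148 and 117 CPM in Control and at 141, 135 and 186 CPM in DKD replicates 1 to 3. Its groups overlapped and its log2 fold change was 0.19 ± 0.17 (edgeR adjusted p 0.542), only DKD replicate 3 stood above the Control range, and without it the log2 fold change was 0.032. Maff, a small MAF partner of NRF2, was measured at 5.92, 5.92 and 2.48 CPM in Control and at 11.1, 8.96 and 17.3 CPM in DKD. Its groups did not overlap, and its log2 fold change of 1.38 ± 0.39 had adjusted p-values of 0.107 by edgeR and 0.00718 by DESeq2. Btrc, the adaptor of a second ubiquitin ligase that can remove NRF2, had the smallest p on the list, with 28.8, 24.5 and 30.4 CPM in Control and 18.5, 19.9 and 18.6 CPM in DKD. Every DKD value of Btrc was under every Control value, with a log2 fold change of -0.56 ± 0.12 and adjusted p-values of 0.0659 by edgeR and 0.00443 by DESeq2. With a trend on transcript length removed the log2 fold change of Btrc was -0.35 (edgeR adjusted p 0.291). The other 7 regulators (Nfe2l1, Mafg, Mafk, Bach1, Sqstm1, Cul3 and Rbx1) had overlapping groups.

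Of 9 tested genes of glutathione use, 4 had higher and 5 lower fitted values in DKD. Every DKD library lay below every Control library for 4 of the 9 (Gsta3, Gsr, Ggt1 and Slc3a2), against 15.2% of all genes tested. The DKD libraries all lay above Control for 0 of the 9, against 15.5%. With an unadjusted p under 0.05 there were 2 lower (10.9% of all genes) and 0 higher (11.8%). Gsta3, a glutathione transferase, was measured at 139, 150 and 101 CPM in Control and at 75.1, 64.8 and 92.2 CPM in DKD. Its DKD libraries all lay below Control, with a log2 fold change of -0.75 ± 0.19 (edgeR adjusted p 0.0928). Gsr, which regenerates reduced glutathione with NADPH, had a log2 fold change of -0.36 ± 0.15 (edgeR adjusted p 0.203), also without overlap. In the thioredoxin pair, thioredoxin itself, Txn1, had 0.60 ± 0.20 (edgeR adjusted p 0.138) with every DKD library above Control. The gap was narrow, with 203.33 CPM in DKD replicate 2 and 202.62 CPM in Control replicate 3. With a trend on transcript length removed Txn1 had 0.41 (edgeR adjusted p 0.404). The peroxiredoxin Prdx1 had -0.01 ± 0.20, a value whose sign varied between settings.

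Of 5 other enzymes that supply NADPH, 4 had higher fitted values and none had an unadjusted p under 0.05. Tkt and Pgd, both of the pentose phosphate pathway that G6pdx opens, had log2 fold changes of 0.46 ± 0.21 and 0.45 ± 0.20 with overlapping groups, and 0.25 and 0.23 without DKD replicate 3. Among 5 genes of heme and iron handling, Fth1 and Slc48a1 had the smallest p. Fth1, the ferritin heavy chain that stores iron, was measured at 3093, 3060.4 and 4015 CPM in Control and at 5751, 4383 and 5971 CPM in DKD, without overlap. Its log2 fold change was 0.66 ± 0.24 (edgeR adjusted p 0.162). Slc48a1, a heme transporter, had 0.35 ± 0.12 (edgeR adjusted p 0.146), also without overlap.

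Detoxifying enzymes and export pumps differed in direction, with 8 of 13 higher. Htatip2, an oxidoreductase, had a log2 fold change of 0.44 ± 0.13 (edgeR adjusted p 0.110), with every DKD library above Control. With a trend on transcript length removed that of Htatip2 was 0.28 (edgeR adjusted p 0.445). Abcc2, a pump that exports glutathione and glucuronide conjugates at the apical membrane of proximal tubule cells, was measured at 411, 453 and 419 CPM in Control and at 304, 298 and 309 CPM in DKD. The DKD libraries were close together and all lower, with a log2 fold change of -0.50 ± 0.12 and adjusted p-values of 0.0845 by edgeR and 4.18e-05 by DESeq2. With a trend on transcript length removed the log2 fold change of Abcc2 was -0.35 (edgeR adjusted p 0.362). Proximal tubule markers held a smaller mean share of counts in DKD as well, as given above, and their part in the Abcc2 and Gsta3 values was not tested.

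**Figure D4:**
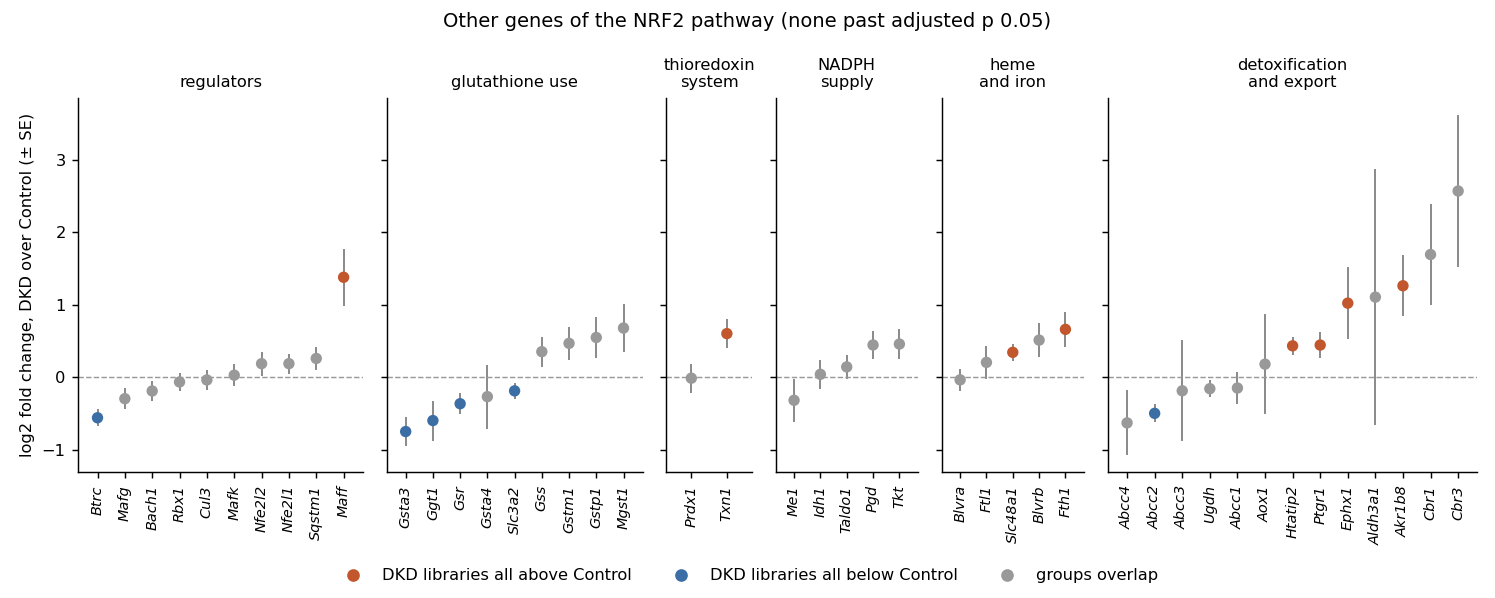
log2 fold change (vertical axis, ± SE) of the 44 tested genes of the wider NRF2 pathway, by role, with red where all DKD libraries lay above Control, blue where all lay below and grey where the groups overlapped. Of the 44, 8 are red and 6 blue, and 0 passed the edgeR threshold.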

How the data were processed

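The authors deposited raw whole-number counts per Ensembl gene, 1 column per library, without normalization. The submitters' processing notes name fastp, HISAT2, StringTie, edgeR and the build GRCm39. No version, annotation or strand setting is given in the sources used here. Values of 4 (6267) outnumbered those of 3 (3129) and 5 (1993), so the deposited counts may be converted coverage estimates. Symbols, exonic lengths and overlaps came from GENCODE M21 on GRCm38, which matched 55141 of 55401 identifiers.

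Genes passed filterByExpr (minimum count 10), and edgeR 4.0.16 (R 4.3.3) was run with its quasi-likelihood test, TMM factors, no term beside the group, and Benjamini-Hochberg adjustment over all genes. SE is the fold change divided by the root of F. Alternatives were other scalings and filters, DESeq2 1.42.0, limma-voom (limma 3.58.1), robust dispersion, the replicate block, length and GC trends, and each library left out. The members, lists and naming rule (all 10 genes, the 2 smallest p per pathway role, Nfe2l2, the 3 genes most like the top member) were chosen with earlier results of these data known. The procedure was tested on simulated data. It called 46 of 100 genes given a log2 fold change of 1 in size, and 97 of 100 given 2. The changed genes were drawn from better expressed ones, so these rates do not cover a gene as low as Slc7a11. The simulated libraries were drawn independently, so the rates do not cover a library that stands apart across many genes. Of its 157 calls, 14 were unchanged genes. No 2 libraries were duplicates (log CPM r at most 0.98).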

Additional observations from a re-analysis of the deposited data

How the results depend on the processing

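Over 169 recomputed fold changes of the 10 genes, 155 kept direction and side of the threshold. Gclc kept its direction in all 17 alternatives (log2 fold change 1.06 to 1.31) but lost the call in 7, so that 0 of the 10 genes passed with no filter on low counts (edgeR adjusted p 0.0540), with the replicate block (0.169) and with the length trend removed (0.0533), as well as without Control replicate 1 or 2 or DKD replicate 1 or 3. DESeq2 called 4 of the 10 genes. Leaving out 1 library at a time gave 0 to 1 of the 10 genes, 0 to 0 of the pathway list and 1 to 386 of all genes, the latter against 228 with all libraries. The count over all genes was 516 with at least 1 CPM in 3 libraries, 56 without a filter, 2483 with DESeq2 and 0 with the replicate block, where 3322 had an unadjusted p under 0.05. Same-numbered libraries did not deviate together from their group means (r -0.183, 0.0663 and -0.224). Only DKD replicate 2 was closest to the library of its own number in the other group. With 3 libraries per group this cannot decide whether the numbers pair the samples, and no label states it. DESeq2 called 8 pathway genes. Library totals shifted the median of all genes by -0.13. Osgin1 turned sign in 4 settings: -0.0088 with library totals, -0.061 with the length trend removed, -0.14 with the GC trend removed and -0.13 without Control replicate 1, with values up to 0.34 when another library was left out. Prdx1 turned from -0.01 to 0.012 with upper quartile factors, 0.015 with limma-voom, 0.018 with the replicate block, 0.042 with the GC trend removed, 0.21 without Control replicate 3 and 0.0036 without DKD replicate 2. On mean log2 CPM the distal nephron markers were higher in DKD by 0.30, against a log2 ratio of shares of -0.22. The macrophage share ratio ran from -0.014 (without Control replicate 3) to 0.60, and the erythrocyte ratio from -0.43 (without DKD replicate 2) to 0.91. The Gclc to Gclm ratio in DKD was 1.58 to 1.99 times that in Control with 1 library left out, a check added after the data were seen. The cause of these shifts was not tested.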

Other observations

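Some NRF2-linked detoxifying enzymes, named here after their values were seen, had large fitted changes and a wide spread between libraries. Of the 13 genes of detoxification and export, 8 had higher and 5 lower fitted values in DKD. Of these 13, 4 had every DKD library above Control (15.5% of all genes tested) and 1 had every DKD library below (15.2%). Cbr3, a carbonyl reductase, was measured at 9.60, 6.51 and 0.885 CPM in Control replicates 1 to 3 and at 16.9, 6.95 and 77.4 CPM in DKD replicates 1 to 3. DKD replicate 3 was again the highest library and Control replicate 3 the lowest, and the groups overlapped (edgeR adjusted p 0.205). Its neighbour in function Cbr1 had the same extremes, with 96.3, 80.3 and 27.1 CPM in Control and 167, 70.0 and 423 CPM in DKD. The groups of Cbr1 overlapped too (edgeR adjusted p 0.205). Ephx1, the microsomal epoxide hydrolase, was at 140, 137 and 37.1 CPM in Control and at 175, 160.05 and 303 CPM in DKD, without overlap (edgeR adjusted p 0.270). Akr1b8, an aldo-keto reductase, was at 5.20, 6.72 and 2.34 CPM in Control and at 9.80, 8.35 and 16.1 CPM in DKD, also without overlap (edgeR adjusted p 0.142).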
